A study of Homo sapiens with 4 samples.

Results

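A bidirectional coding promoter is here the stretch between the starts of 2 protein-coding genes that lie head to head, the left gene on the minus strand and the right gene on the plus strand, with starts within 1 kb of each other and no overlap of the gene bodies. By the gene records of GENCODE release 44 on chromosomes 1 to 22 of hg38, 861 such pairs were found. They hold 1659 of the 19111 protein-coding genes (8.68%), since 62 genes take part in more than 1 pair. Each member window ran from 1 kb left of the left start to 1 kb right of the right start, and 799 loci remain where overlapping windows are merged. The gap between the starts had a median of 131 bp, with quartiles of 69 and 248 bp and a range from 1 to 995 bp. Chromosomes 1, 19 and 11 held the most members, with 78, 74 and 71. The comparison is with windows of 1 kb either side of the 17452 other coding gene starts. Of these, 937 face a coding gene whose start lies within 1 kb and whose body overlaps theirs (overlapping head-to-head), 1541 have the start of a noncoding gene upstream within 1 kb in the divergent direction (noncoding partner), and 14974 have neither (single).

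The data come from HG00731, a human lymphoblastoid cell line (LCL), that is, B cells immortalised with Epstein-Barr virus. SMC1, a core subunit of the cohesin ring, was mapped by HiChIP after dual cross-linking with formaldehyde and EGS (FA-EGS), and CTCF, the zinc finger protein at which cohesin stops, by HiChIP after formaldehyde alone (FA), with 2 biological replicates per target. HiChIP joins ligated chromatin contacts with immunoprecipitation, so that 1 library gives both binding peaks and loops. The authors pooled the replicates before calling peaks and loops, so the values below have no spread between replicates and no test was made. Shares have 95% Wilson intervals, differences 95% Newcombe intervals and medians 95% intervals from the ranks, and all of them cover counting error only. Target and fixation changed together, and the study reports more reads in total for SMC1 than for CTCF in this cell line. Differences between the SMC1 and the CTCF lists therefore cannot be told apart from differences in cross-linking or in sequencing depth. Peak lists hold no marker expression, and the labelled cell type was not checked from them.

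The autosomal lists hold 94628 SMC1 and 61417 CTCF peaks, 27785 loops labelled SMC1 with a sum of 783375 read pairs, and 79406 loops labelled CTCF with 2635261. All 27785 loops of the list labelled SMC1 had a CTCF peak at an end, while 11 of them had no SMC1 peak at either end. All 79406 loops of the list labelled CTCF had a SMC1 peak at an end, while 3654 of them had no CTCF peak at either end. The lists also carry the loop numbers that the study gives for the other target. The loop lists are therefore named only by their labels, values from both are given side by side, and a reader who exchanges the labels exchanges those values.

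Some stretches of the genome hold no peak at all, and 21 members (2.44%) and 301 other starts (1.72%) lie in stretches of over 1 Mb without a peak of either target. On chromosome 6, 10 members lie in chr6:31374673-33481065 and 3 in chr6:28496550-31373914, stretches that hold 112 and 71 coding starts and no loop end of either list. VPS52/RPS18, whose right gene encodes a ribosomal protein that every cell makes, is among them. On chromosome 14, 5 members lie in chr14:92868499-94412458, again with no loop end. None of the 21 members was at an anchor of either list, and why these stretches are empty was not tested. Of the stretches with a member, chr1:242937427-243946600 held 1 loop end of the list labelled CTCF. At these places it therefore cannot be told whether a missing peak or loop reflects the promoter. Without them, a setting chosen after the data were seen that raises the shares by its construction, a SMC1 peak was found at 88.9% of 840 members and 55.3% of the other starts, and a CTCF peak at 58.7% and 37.0%.

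RNA polymerase II promoters commonly fire in both directions, and at a head-to-head pair each direction yields an mRNA from a shared nucleosome-free stretch. Such promoters are known to be rich in CpG dinucleotides, to lack a TATA box as a rule and to serve many housekeeping genes, DNA repair genes among them. Cohesin is loaded onto chromatin and extrudes loops until it meets CTCF bound in the right orientation, and it is also found at active promoters that CTCF does not bind. The intervals between the starts of 5 well-known pairs show what such a promoter looks like, read 5′ to 3′ on the plus strand of hg38. Capitals mark matches, on either strand, to the CCAAT box (CCAAT), the GC box bound by SP factors (GGGCGG), the ETS site (CCGGAAG), the cores of the NRF1 and YY1 sites (GCATGCGC and GATGGCGG), the palindrome CTCGCGAG, a stretch of the ZNF143 site (ACTACAA) and the TATA box (TATAAA). They come from a fixed list of known pairs and have at most 300 bases between the starts.
NTHL1/TSC2: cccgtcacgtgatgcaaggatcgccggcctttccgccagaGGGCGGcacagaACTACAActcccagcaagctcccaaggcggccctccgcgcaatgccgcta
OSGEP/APEX1: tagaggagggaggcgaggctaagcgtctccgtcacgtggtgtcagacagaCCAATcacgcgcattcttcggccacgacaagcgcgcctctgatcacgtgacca
PPAT/PAICS: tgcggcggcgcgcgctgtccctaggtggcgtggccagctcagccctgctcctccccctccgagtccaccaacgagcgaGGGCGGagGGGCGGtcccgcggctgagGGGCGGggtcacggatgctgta
COL4A4/COL4A3: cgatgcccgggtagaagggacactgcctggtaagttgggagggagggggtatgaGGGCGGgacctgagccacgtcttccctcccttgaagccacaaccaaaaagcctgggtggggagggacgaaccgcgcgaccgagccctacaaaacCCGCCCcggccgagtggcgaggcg
SIRT3/PSMD13: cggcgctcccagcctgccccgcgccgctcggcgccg
NTHL1/TSC2 lies at chr16:2047866-2047967, OSGEP/APEX1 at chr14:20455089-20455191, PPAT/PAICS at chr4:56435615-56435741, COL4A4/COL4A3 at chr2:227164453-227164624 and SIRT3/PSMD13 at chr11:236931-236966. No listed motif fell between the starts of SIRT3/PSMD13, and no TATA box in any of the 5 intervals. GC content ranged from 60.2% in OSGEP/APEX1 to 88.9% in the 36 bases of SIRT3/PSMD13.

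Most bidirectional coding promoters carried cohesin. A SMC1 peak overlapped 747 of the 861 windows (86.8%, from 84.3 to 88.9%), against 9483 of 17452 windows of other starts (54.3%, from 53.6 to 55.1%), a difference of 32.4 percentage points (from 29.9 to 34.6). Over all 19111 coding starts, the share within 1 kb of a SMC1 peak was 57.1%. A CTCF peak overlapped 493 member windows (57.3%, from 53.9 to 60.5%), against 36.4% (from 35.7 to 37.1%) of the other starts, a difference of 20.9 percentage points (from 17.5 to 24.2), where all coding starts gave 38.1%. Both differences exceeded their counting error.

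CTCF seldom stood without cohesin at these promoters or at other coding starts. Both peaks were present in 486 member windows (56.4%), a SMC1 peak without a CTCF peak in 261 (30.3%, from 27.3 to 33.5%), a CTCF peak without a SMC1 peak in 7 (0.813%, from 0.394 to 1.67%) and neither in 107 (12.4%), of which 21 lie in the stretches without peaks. The share with a SMC1 peak and no CTCF peak was 10.5 percentage points (from 7.42 to 13.7) above that of the other starts, and over all coding starts it was 20.8%. It was not particular to the members, since 31.7% (from 28.8 to 34.7%) of overlapping head-to-head starts and 26.0% of starts with a noncoding partner had it, beside 18.5% of single starts. At the other starts the share with neither peak was 43.8%, with both peaks 34.5% and with a CTCF peak but no SMC1 peak 1.89%. This last share was 0.747% at overlapping head-to-head starts, 1.75% with a noncoding partner and 1.97% at single starts. It was thus low in every class.

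Shares varied with the kind of neighbouring start, though CTCF shares were alike at overlapping head-to-head starts and at starts with a noncoding partner. SMC1 peaks were found at 81.9% of overlapping head-to-head starts (from 79.3 to 84.2%), at 74.8% of starts with a noncoding partner (from 72.6 to 76.9%) and at 50.5% of single starts (from 49.7 to 51.3%). CTCF peaks were found at 50.9%, 50.6% and 34.0% of these classes. Set against starts with a noncoding partner alone, the members' difference was 11.9 percentage points for SMC1 (from 8.73 to 15.0) and 6.71 for CTCF (from 2.55 to 10.8), and both intervals lie above 0.

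**Figure D1:**
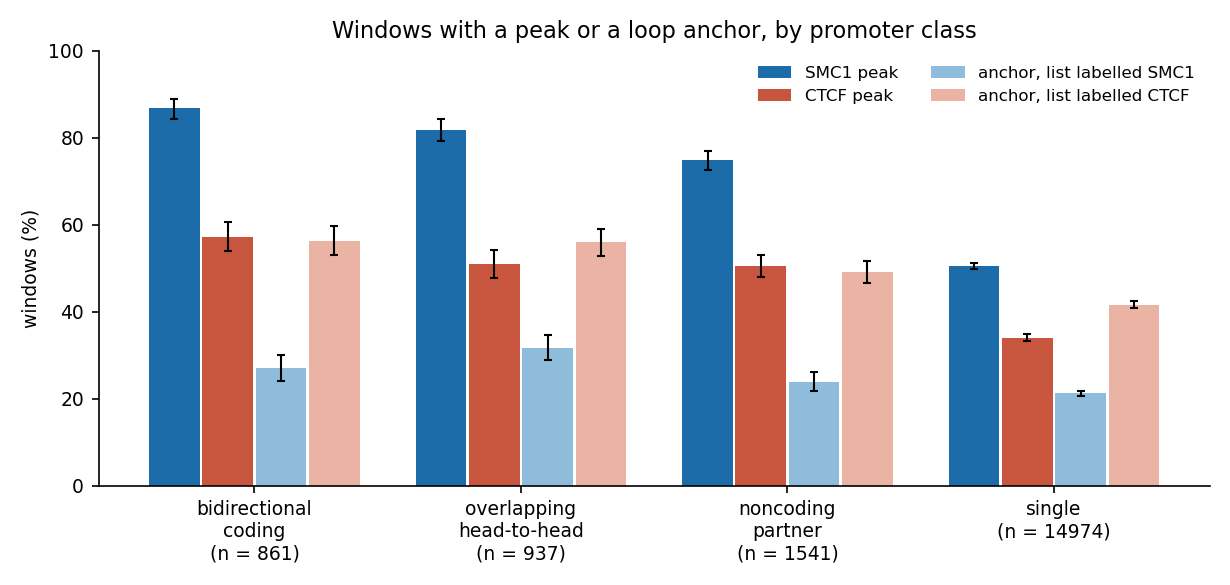
Bars show the share of windows (%) with a SMC1 peak, a CTCF peak, or an anchor of the loop list labelled SMC1 or CTCF, for bidirectional coding promoters and 3 classes of other coding gene starts, with 95% Wilson intervals. SMC1 peaks fall from 86.8% of bidirectional coding promoters to 50.5% of single starts, while anchors of the list labelled SMC1 range from 21.2% to 31.7% and are most frequent at overlapping head-to-head starts.

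Base composition moved with these shares. Member windows had a median GC content of 56.0%, against 54.9% for the other starts, and a median CpG ratio (observed over expected CpG) of 0.697 against 0.601. In the tertile of windows with the lowest GC content, 174 of 200 members had a SMC1 peak (87.0%), against 36.1% of the other starts. In the middle tertile the shares were 88.3% and 63.7%, and in the highest 84.6% and 63.7%. The share of members with a SMC1 peak thus stayed nearly level across GC content while that of the other starts did not. For CTCF the members' shares were 49.0%, 56.0% and 64.7% from the lowest to the highest tertile, against 20.8%, 42.2% and 46.5%. When the other starts were weighted to the CpG ratio of the members, a setting chosen after the data were seen, the differences were 17.8 percentage points for SMC1 and 10.3 for CTCF. Members with neither peak had a median CpG ratio of 0.621, against 0.704 for members with a SMC1 peak. The part of base composition in these differences was not tested further.

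The letters upstream of the starts differed as well. In the 200 bases upstream of each start, which at most members reach into the partner gene, GGGCGG was found on either strand at 64.1% of the 1659 member genes and 45.2% of the other starts, with 46.9% of all coding starts. The ETS site CCGGAAG was found at 19.8% and 7.11% (8.22% of all), the NRF1 core GCATGCGC at 6.63% and 2.38% (2.75% of all), the YY1 core GATGGCGG at 2.65% and 0.768% (0.931% of all), the palindrome CTCGCGAG at 2.23% and 0.774% (0.900% of all), and ACTACAA at 4.88% and 2.00% (2.25% of all). CCAAT was found at 34.9% and 28.5% (29.1% of all). TATAAA went the other way, at 54 member genes (3.25%, from 2.50 to 4.22%) and 8.65% of the other starts (8.18% of all). Each motif was searched for by itself, so that matches of different motifs can overlap. Both genes of a pair are counted, and at short gaps their upstream stretches share bases. Counts of member genes are therefore not independent, and their intervals are too narrow.

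Within the members, the SMC1 share varied little with most of these letters. It was 89.1% of member genes with CCGGAAG and 85.0% of those without, 94.5% of those with GCATGCGC and 85.2% without, and 86.8% with GGGCGG and 83.9% without. The 54 member genes with TATAAA had a SMC1 peak in 68.5% of cases, against 86.4% of those without. At other starts the contrast was wider for most motifs, with 81.5% with CCGGAAG and 52.3% without, and with 29.3% with TATAAA and 56.7% without. For CCAAT it was not, with 54.8% and 54.1% at other starts beside 87.2% and 85.0% at member genes.

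Where peaks were present, those of SMC1 were as strong as at other starts within counting error and those of CTCF weaker than at the other starts as a whole. The strongest SMC1 peak of a member window had a median -log10 q-value, the significance that the peak caller MACS3 gives, of 31.1 (from 29.4 to 33.6, n = 747), against 31.0 (from 30.4 to 31.6, n = 9483) at the other starts. The ratio of the medians was 1.002 (from 0.932 to 1.11), and the median fold enrichment over the local background was 4.39 against 4.37. The strongest CTCF peak had a median of 18.8 (from 16.3 to 23.2, n = 493), against 24.9 (from 23.6 to 26.5, n = 6347), a ratio of 0.754 (from 0.614 to 0.985). The median fold enrichment of CTCF was 4.79 against 5.48. Classes with a neighbour were alike in this, with a median CTCF -log10 q-value of 17.6 (from 15.6 to 22.2) at overlapping head-to-head starts and 21.9 (from 18.9 to 24.9) with a noncoding partner, beside 26.6 (from 24.9 to 28.4) at single starts. A -log10 q-value of at least 100 was reached by 86 of the members with a CTCF peak (17.4%), against 22.2% of other starts with one, and by 44 members for SMC1 (5.89%), against 9.37%.

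Members with both peaks had stronger cohesin. Their median SMC1 -log10 q-value was 40.3, against 20.2 for members with a SMC1 peak only. SMC1 peaks were also wide, with a median of 1055 bp at members, 948 bp at other starts and 657 bp over all autosomal SMC1 peaks. At least 2 of them were held by 195 members, whose windows are longer (median 2132 against 2001 bp). Windows with a SMC1 peak held a median of 1 in both groups, with upper quartiles of 2 at members and 1 at other starts. CTCF peaks had median widths of 515 bp at members and 561 bp at other starts, and 78 members held at least 2. Windows with a CTCF peak had a median and an upper quartile of 1 in both groups. The share of other starts with at least 2 peaks was not counted.

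**Figure D2:**
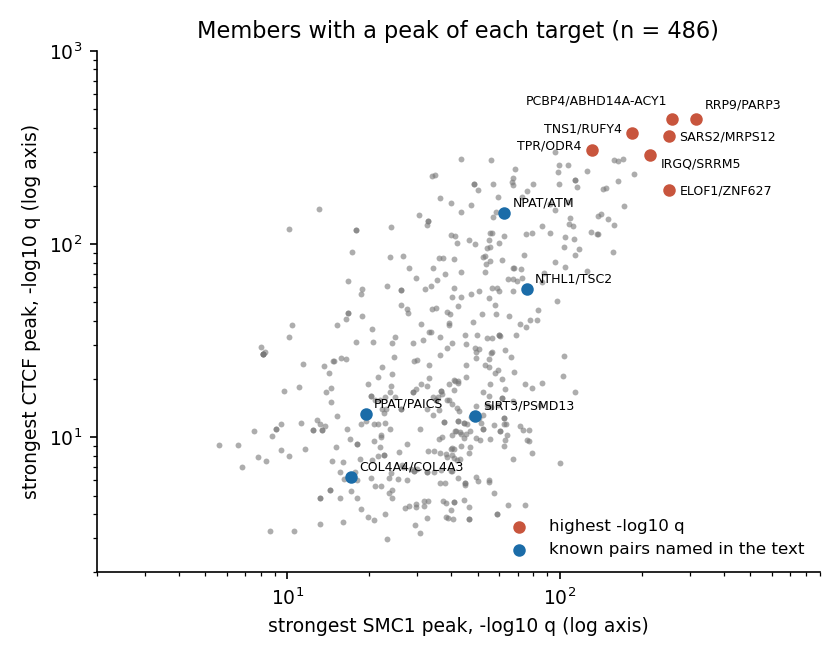
Each point is 1 of the 486 bidirectional coding promoters with a peak of each target, with the -log10 q-value of its strongest SMC1 peak on the x axis and of its strongest CTCF peak on the y axis (both log axes). The members with the highest values (red) stand at the upper right, with CTCF values from 190.0 to 446, and 5 known pairs named in the text (blue) spread from COL4A4/COL4A3, at 17.2 and 6.23, to NPAT/ATM, at 62.6 and 145.

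The highest peaks stood at few places. RRP9/PARP3 on chromosome 3, which joins a protein of the U3 small nucleolar particle to an ADP-ribosyltransferase of DNA break repair, had the highest value for each target, with -log10 q-values of 317 for SMC1 and 446 for CTCF and fold enrichments of 11.9 and 16.8. PCBP4/ABHD14A-ACY1, whose right start belongs to a read-through transcript into the aminoacylase ACY1, had 257 and 443. SARS2/MRPS12, a pair of mitochondrial translation genes (a seryl-tRNA synthetase and a ribosomal protein), had 252 and 362. These 3 were among the 5 highest for both targets. For SMC1 the other two were ELOF1/ZNF627 (a transcription elongation factor and a zinc finger gene), with 252, and IRGQ/SRRM5, with 215. Their CTCF values were 190.0 and 289. For CTCF the other two were TNS1/RUFY4 (tensin, a focal adhesion protein, on the left), with 376, and TPR/ODR4 (a nuclear pore basket protein on the left), with 307. Their SMC1 values were 185 and 131. Of these 7 members, 3 have at most 300 bases between their starts.
SARS2/MRPS12: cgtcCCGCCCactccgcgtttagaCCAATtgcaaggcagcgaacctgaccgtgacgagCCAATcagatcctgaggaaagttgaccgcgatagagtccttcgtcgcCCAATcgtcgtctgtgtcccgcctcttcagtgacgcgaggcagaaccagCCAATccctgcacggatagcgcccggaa
ELOF1/ZNF627: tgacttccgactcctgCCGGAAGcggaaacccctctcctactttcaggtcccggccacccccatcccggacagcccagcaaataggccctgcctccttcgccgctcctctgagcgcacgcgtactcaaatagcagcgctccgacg
TPR/ODR4: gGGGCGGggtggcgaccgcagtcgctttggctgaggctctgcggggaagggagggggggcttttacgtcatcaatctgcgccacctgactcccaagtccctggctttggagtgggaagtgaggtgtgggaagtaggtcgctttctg
SARS2/MRPS12, at chr19:38930763-38930944, holds 4 CCAAT boxes and 1 GC box, ELOF1/ZNF627, at chr19:11559230-11559374, holds an ETS site, and TPR/ODR4, at chr1:186375693-186375838, holds a GC box at its left end. In none of the 3 did the summit of the strongest peak of either target lie between the starts. In ELOF1/ZNF627 the SMC1 summit lay 1484 bp and the CTCF summit 1532 bp right of the midpoint, outside the window that the peak reaches into.

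The CTCF peaks were searched for the CTCF motif within 100 bp of the summit. A motif of 19 bp with the consensus CCACNAGNNGGCNNNNNNN was learned from the 3000 strongest autosomal CTCF summits away from coding starts. The threshold of 10.6 bits was set so that 5.0% of control sequences, taken 1000 bp from these summits, score above it. Of the summits that the motif was learned from, 62.8% did. How often promoter sequences without a CTCF peak pass was not measured. At members, 102 of the 493 strongest CTCF peaks (20.7%, from 17.3 to 24.5%) held a site above the threshold, against 1569 of 6347 at the other starts (24.7%, from 23.7 to 25.8%). The share rose with strength, from 10.6% of member peaks with a -log10 q-value under 10 to 35.7% (from 28.3 to 43.8%) of those at 50 or more, where the other starts had 37.6%. The best sites at the 5 members with the highest CTCF values, read along the strand of the motif with its 19 bases in capitals, were as follows.
RRP9/PARP3: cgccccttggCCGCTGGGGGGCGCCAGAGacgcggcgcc
PCBP4/ABHD14A-ACY1: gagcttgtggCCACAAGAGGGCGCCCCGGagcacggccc
TNS1/RUFY4: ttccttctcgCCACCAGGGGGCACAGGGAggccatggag
SARS2/MRPS12: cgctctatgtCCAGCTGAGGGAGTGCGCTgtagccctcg
TPR/ODR4: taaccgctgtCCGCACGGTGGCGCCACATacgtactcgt
The sites lie at chr3:51942218-51942236 (plus strand), chr3:51974090-51974108 (minus), chr2:218034905-218034923 (minus), chr19:38930562-38930580 (plus) and chr1:186375493-186375511 (plus) of hg38. They scored 18.1, 21.0, 20.6, 8.55 and 12.2 bits, so that the site at SARS2/MRPS12 fell short of the threshold although its peak was the fourth highest. The sites at RRP9/PARP3, PCBP4/ABHD14A-ACY1 and TNS1/RUFY4 lie between the starts of their pairs. The sites at RRP9/PARP3 and at PCBP4/ABHD14A-ACY1 face each other, and a loop of both lists joins these promoters.

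Summits gathered at the middle of the promoters, though most lay beside the starts. Of 862 SMC1 summits in member windows, 128 lay between the starts (14.8%, from 12.6 to 17.4%), where 9.14% of the window length lies, and 374 lay left and 360 right of them. Of 531 CTCF summits, 87 lay between the starts (16.4%, from 13.5 to 19.8%), with 247 to the left and 197 to the right. Within 200 bp of the midpoint there were 28.4% (from 25.5 to 31.5%) of the SMC1 and 34.3% (from 30.4 to 38.4%) of the CTCF summits. At single starts, 32.3% (from 31.2 to 33.3%) of SMC1 and 31.5% (from 30.2 to 32.8%) of CTCF summits lay within 200 bp of the start in windows that are somewhat shorter. By this share the SMC1 summits of members were no more central than those of single starts. Per window, the density of SMC1 summits was highest in the bins next to the midpoint, at 9.29 and 8.25 summits per 100 members and 100 bp, against 4.84 and 4.38 per 100 single starts. More members than single starts held a SMC1 peak, which raises this density over the whole window.

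**Figure D3:**
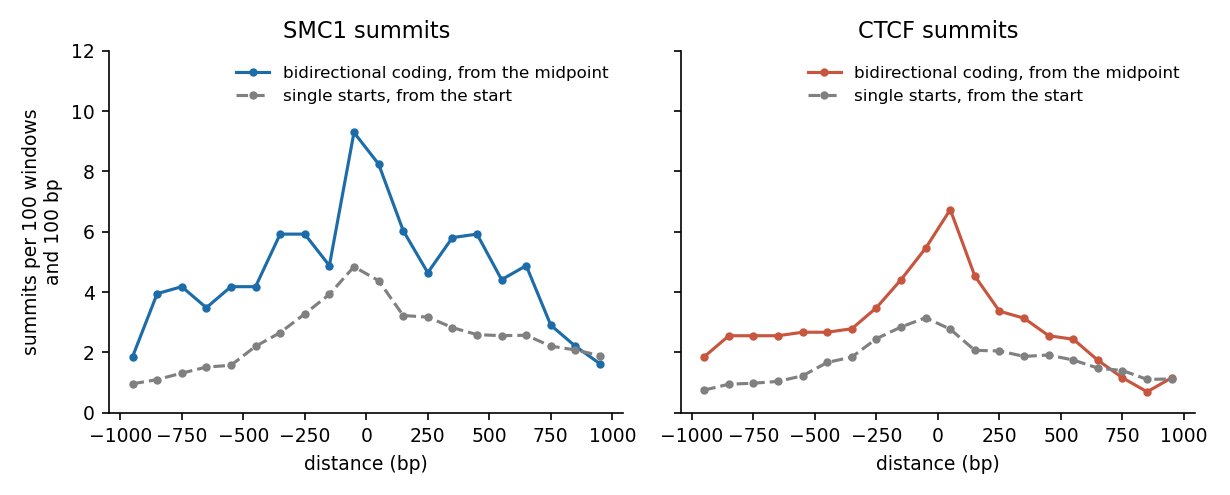
Lines show the number of SMC1 (left) and CTCF (right) summits per 100 windows in bins of 100 bp, by distance (bp) from the midpoint of bidirectional coding promoters, in genome direction, and from the start of single genes, in gene direction. Summits at the members peak at the midpoint, at 9.29 for SMC1 and 6.74 for CTCF, and lie above the single starts over most of the window, with like values at its right edge.

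The distance between the starts was not matched by a graded change in peaks up to 1 kb. With equal windows of 1 kb either side of each gene start, SMC1 peaks were found at 83.3% of starts whose divergent coding neighbour lay 1 to 50 bp away, 89.3% at 51 to 100 bp, 87.5% at 101 to 200 bp, 83.5% at 201 to 500 bp and 81.9% (from 74.6 to 87.4%, n = 138) at 501 to 1000 bp. Past the limit, at 1001 to 2000 bp, the share was 58.2% (from 49.9 to 66.0%, n = 141), an interval that includes the 52.5% of starts with no such neighbour within 20 kb. CTCF shares lay between 53.3% and 58.5% up to 1000 bp and were 44.7% (from 36.7 to 52.9%) at 1001 to 2000 bp and 35.3% with no such neighbour. Windows of starts within 1 kb of each other contain both starts, which those further apart do not. Both genes of a pair are counted here with windows that overlap. The intervals up to 1 kb are therefore narrower than they would be for independent promoters.

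Loop anchors followed the distance in another way. The share at an anchor of the list labelled SMC1 was 22.5% at 1 to 50 bp and 39.1% (from 31.4 to 47.5%) at 501 to 1000 bp, and it was 30.5% at 1001 to 2000 bp, 31.1% at 5001 to 20000 bp and 19.9% with no divergent coding neighbour within 20 kb. For the list labelled CTCF the values were 49.1%, 65.9%, 53.9%, 48.2% and 41.2%. In both lists the share was thus lower at 1001 to 2000 bp than at 501 to 1000 bp, with intervals that overlap (from 45.7 to 61.9% and from 57.7 to 73.3% by the CTCF label). Starts with a neighbour 501 to 20000 bp away were at anchors more often than starts with none. Both starts of a pair are counted here too and can lie at the same anchor, so that these intervals are also too narrow.

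**Figure D4:**
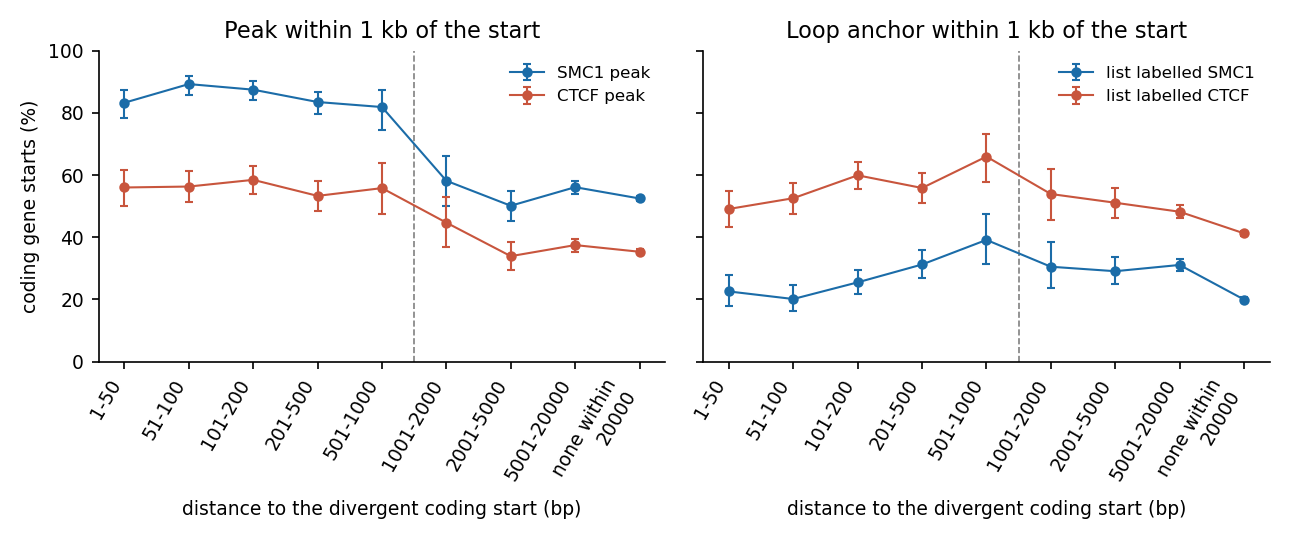
Points show the share of coding gene starts (%) with a peak (left) or a loop anchor (right) within 1 kb, by the distance (bp) to the nearest coding start upstream in the divergent direction, with 95% Wilson intervals. The dashed line marks the 1 kb limit of the members, across which SMC1 peaks go from 81.9% to 58.2% of starts. Both starts of a pair are counted.

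The members just inside the limit were PSMB1/TBP, with a gap of 995 bp, MS4A6A/MS4A4A, with 991 bp, and APBA3/MRPL54, with 990 bp. PSMB1/TBP (a proteasome subunit and the TATA-binding protein) had -log10 q-values of 50.1 for SMC1 and 5.96 for CTCF, and APBA3/MRPL54 had 28.0 and 75.6. MS4A6A/MS4A4A, membrane proteins known from myeloid cells, had no peak. The divergent pairs just outside it were TXNDC12/BTF3L4 (1008 bp), with 48.4 for SMC1 and no CTCF peak, and ENSG00000268790/TMEM38A (1024 bp), with 55.5 and 81.3.

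Bidirectional coding promoters were more often at loop anchors than other starts, by less than for peaks. An anchor of 5 kb of the list labelled SMC1 overlapped 232 members (26.9%, from 24.1 to 30.01%), against 22.0% of the other starts, a difference of 4.94 percentage points (from 2.02 to 8.06). All coding starts gave 22.4%. For the list labelled CTCF, 485 members (56.3%, from 53.0 to 59.6%) were at an anchor, against 43.0%, a difference of 13.3 percentage points (from 9.87 to 16.6), and all coding starts gave 44.2%. Against starts with a noncoding partner only, the difference for the list labelled SMC1 was 3.06 percentage points (from -0.536 to 6.76), an interval that includes 0, and for the list labelled CTCF it was 7.14 (from 2.98 to 11.3).

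Among windows with a SMC1 peak, the members' share at an anchor was not above that of the other starts beyond counting error. Of members with both peaks, 34.4% (from 30.3 to 38.7%) were at an anchor of the list labelled SMC1 and 65.6% (from 61.3 to 69.7%) at one of the list labelled CTCF, against 38.5% and 69.5% of other starts with both. Of members with a SMC1 peak only, the shares were 17.6% and 51.3%, against 20.2% and 50.9%. Members with neither peak were at an anchor in 15.9% (from 10.2 to 24.0%) and 27.1% (from 19.6 to 36.2%) of cases, against 9.80% and 19.2%. Outside the stretches without peaks these shares were 19.8% and 33.7%, against 10.2% and 19.96%. An anchor of 5 kb reaches past the window, so the peak that served its loop can lie outside it.

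**Figure D5:**
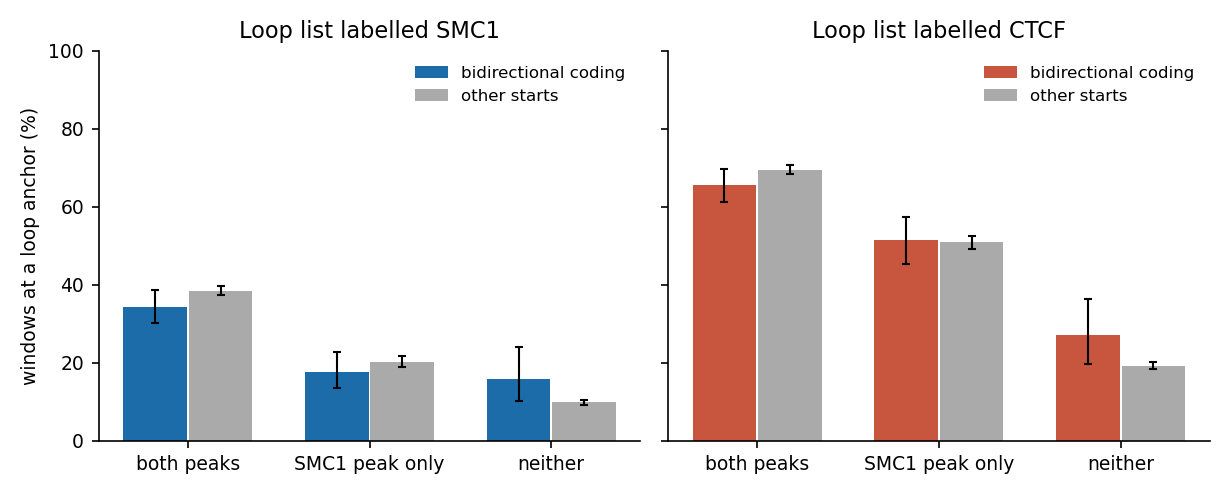
Bars show the share of windows (%) at an anchor of the loop list labelled SMC1 (left) or CTCF (right), for bidirectional coding promoters and other coding starts, split by the peaks that the window holds, with 95% Wilson intervals. With both peaks the shares are 34.4% against 38.5% (left) and 65.6% against 69.5% (right), and the 7 members with a CTCF peak only are not drawn.

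Loops at the members exceeded expectation slightly less than those at other starts, and by the CTCF label they were shorter. The list labelled SMC1 had 534 loops with an end at a member (1.92% of the list), with a median span of 110 kb (from 95 to 130), against 115 kb for loops at other starts only and 130 kb for the whole list. By the CTCF label, 1489 loops (1.88%) had a median span of 85 kb (from 80 to 85), against 105 and 125 kb. Their median was 23 and 24 read pairs, and the ratio of observed to expected read pairs was 3.48 (from 3.34 to 3.65) and 3.42 (from 3.35 to 3.54), against 3.70 and 3.66 at other starts. Members with a loop had a median of 2 in either list, and 5 or more loops were held by 27 members by the SMC1 label and by 110 by the CTCF label. Other starts with a loop also had a median of 2 in either list. Upper quartiles were 3 in both groups by the SMC1 label, and 4 at members and 5 at other starts by the CTCF label. The share of other starts with 5 or more loops was not counted.

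The other end of these loops was often at a promoter again. By the SMC1 label, 184 of 528 ends at a member (34.8%, from 30.9 to 39.0%) had their partner at another coding start that was no member, against 2516 of 10896 ends at other starts (23.1%, from 22.3 to 23.9%), a difference of 11.8 percentage points (from 7.74 to 16.0). By the CTCF label the counts were 433 of 1472 (29.4%, from 27.1 to 31.8%) and 5554 of 26113 (21.3%), a difference of 8.15 percentage points (from 5.82 to 10.6). Coding starts were denser around the members, with a median of 5 further starts within 100 kb of a member end and 3 of another end by the SMC1 label, and 3 and 2 by the CTCF label. Weighted to that density, a setting chosen after the data were seen, the differences were 7.25 and 5.96 percentage points. Ends of 1 anchor are not independent of each other.

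The orientation of the CTCF motif went with the side to which loops ran. In the list labelled SMC1, 68 of 76 loop ends (89.5%, from 80.6 to 94.6%) at the 21 members with a forward motif under their strongest CTCF peak ran to the right, against 38 of 108 (35.2%, from 26.8 to 44.6%) at the 26 members with a reverse motif. By the CTCF label, 119 of 172 (69.2%, 37 members) and 83 of 220 (37.7%, 42 members) did. At the other starts the shares were 69.5% and 26.1% in the list labelled SMC1, and 73.7% and 28.3% in the list labelled CTCF. The number of members behind the former values is small, and the loops of 1 member share its anchor.

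A few members held many loops. SARS2/MRPS12 had the most in the list labelled SMC1, with 39, and 21 in the other. TRADD/FBXL8 (the adaptor of the TNF receptor and an F-box protein) followed with 21 and 14, NOL9/TAS1R1 (a kinase of ribosomal RNA processing and a taste receptor subunit) with 17 and 9, GPR108/TRIP10 with 12 and 22, and KLLN/ENSG00000289051 with 11 and 20. HAUS8/MYO9B (a subunit of the augmin complex of the spindle and an unconventional myosin) led the list labelled CTCF with 30 loops and had 5 in the other, although its strongest peaks were modest, at 13.2 for SMC1 and 3.54 for CTCF. ENSG00000285253/TCF12, whose right gene encodes an E protein of lymphoid cells, had 16 loops by the CTCF label and 6 by the SMC1 label, with peaks of 149.9 for SMC1 and 135 for CTCF. Many loops and high peaks in the window thus met at SARS2/MRPS12 but not at HAUS8/MYO9B. An anchor of 5 kb reaches past the window, so a peak outside it can have served those loops.

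By the SMC1 label, 6 of 534 loops at members joined 2 bidirectional coding promoters, and by the CTCF label 17 of 1489. The 861 members stand beside 17452 other starts, and the number of such loops to expect from that was not worked out. Of the loops between members, the one with the most read pairs was the same in both lists. It joined RRP9/PARP3, in the bin chr3:51940001-51945000, to PCBP4/ABHD14A-ACY1, in chr3:51970001-51975000, over 30 kb, with 168 observed and 69.8 expected read pairs by the SMC1 label and 234 and 40.5 by the CTCF label. The ratios were 2.41 and 5.78. In the former list the next loops ran over 125 kb from BYSL, a start shared by the pairs with MED20 and ENSG00000288721, to CCND3/TAF8 (cyclin D3 and a subunit of TFIID), with 30 read pairs against 11.5 expected, and over 75 kb from H2AC14/H2BC14 to H2BC17, a histone start shared by the pairs with H2AC17 and H3C12, with 26 against 5.96. In the latter the next were BET1L/RIC8A to SIRT3/PSMD13 over 30 kb, with 75 against 26.6, and H2AC15/H2BC15 to the H2BC17 start over 55 kb, with 66 against 25.7. Histone genes of the same type are alike in sequence. By its methods the study kept only aligned reads with a mapping quality above 30. How this filter acted on reads from histone genes was not tested.

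Of 17 pairs known to lie head to head, the rule found 8. Among those with a DNA repair gene, NTHL1/TSC2 (a base excision glycosylase and a growth regulator) had -log10 q-values of 75.7 for SMC1 and 58.9 for CTCF, with both summits between the starts. NPAT/ATM (a histone gene activator and the kinase of DNA break signalling), with a gap of 406 bp, had 62.6 and 145. OSGEP/APEX1 (a tRNA-modifying enzyme and the abasic site endonuclease) had 56.4 for SMC1 and no CTCF peak. PRKDC/MCM4 (the DNA-dependent kinase and a subunit of the replicative helicase), with a gap of 7 bp, had 9.78 for SMC1 and no CTCF peak. These 4 pairs thus all had a SMC1 peak, over a wide range of strength.

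The CTCF values of other known pairs were below those of NTHL1/TSC2 and NPAT/ATM. SIRT3/PSMD13 (a mitochondrial deacetylase and a proteasome subunit) had 48.6 for SMC1 and 12.9 for CTCF, with both summits over 1 kb left of the midpoint. PPAT/PAICS, which encode enzymes of purine synthesis, had 19.4 and 13.2. COL4A4/COL4A3, the basement membrane collagens, had 17.2 and 6.23, with the SMC1 summit 1344.5 bp from the midpoint. In the list labelled CTCF, NPAT/ATM, NTHL1/TSC2 and OSGEP/APEX1 had 4 loops each and SIRT3/PSMD13 had 1, and PRKDC/MCM4, PPAT/PAICS and COL4A4/COL4A3 had none. In the list labelled SMC1, the same 3 pairs with 4 loops had 1 each and the other 4 named pairs had none.

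Gene families were spread unevenly over the class. Members held 27 of 73 core and linker histone genes (37.0%) and 46 of 146 listed genes of DNA repair and replication (31.5%). They held 17 of 78 mitochondrial ribosomal protein genes (21.8%) and 20 of 95 genes of the respiratory chain (21.1%). Of 49 genes whose symbol begins with PSM they held 6 (12.2%), of 35 aminoacyl-tRNA synthetase genes 3 (8.57%) and of 503 ZNF zinc finger genes 30 (5.96%). The share of all coding genes was 8.68%. The PSM genes, most of them named as proteasome subunits, were taken by symbol and include PSME3IP1, named as an interaction partner of PSME3. Of the 4 counted collagen IV genes, COL4A3 and COL4A4 were in a member. These shares follow from gene arrangement and say nothing of binding.

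SMC1 peaks were found in all these families, where pairs that share a gene are counted as separate members. SMC1 peaks overlapped 18 of the 18 members with a mitochondrial ribosomal protein gene, 6 of 6 with a PSM gene and 3 of 3 with an aminoacyl-tRNA synthetase gene. They also overlapped 26 of 27 with a ZNF gene and 43 of 47 with a gene of DNA repair and replication. For the respiratory chain they overlapped 18 of 21 and for histone genes 12 of 15, beside 86.8% of all members. The single collagen IV member had a peak of each target. Other starts of the same families had a SMC1 peak in 52 of 61, 34 of 43, 28 of 32, 341 of 473, 85 of 100, 61 of 75 and 33 of 46 cases, in the same order.

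CTCF peaks divided the families more. They overlapped 5 of 15 histone members, with 7 more that had a SMC1 peak only, 10 of 18 mitochondrial ribosomal and 11 of 21 respiratory chain members. They also overlapped 25 of 47 repair and replication, 16 of 27 ZNF, 5 of 6 PSM and 3 of 3 synthetase members, beside 57.3% of all members. Other starts of the same families had a CTCF peak in 23 of 46, 27 of 61, 38 of 75, 46 of 100, 208 of 473, 22 of 43 and 14 of 32 cases, in the same order. Anchors of the list labelled CTCF were at 34 of 47 repair and replication members (72.3%, from 58.2 to 83.1%), 14 of 21 respiratory chain, 12 of 18 mitochondrial ribosomal, 11 of 27 ZNF and 8 of 15 histone members, beside 56.3% of all members. Anchors of the list labelled SMC1 were at 13, 6, 6, 7 and 7 of them, beside 26.9% of all members. Pairs that share a gene can lie at the same peak or anchor, so that these counts are not independent and the interval is too narrow. The families are small and were chosen with earlier results known, and no test of a family against all members was made.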

How the data were processed

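SMC1 FA-EGS HiChIP and CTCF FA-HiChIP of HG00731 were analysed from 1 peak list and 1 loop list per target, each made from 2 pooled replicates. Alignment by the authors was to hg38 with BWA-MEM, and peaks were called without an input sample on deduplicated reads by MACS3 3.0.1. A peak's fold enrichment at the summit, a ratio to local background, was deposited with its -log10 q-value. No peak has a q-value above 0.01. A loop's unnormalised count of read pairs between 5 kb bins was deposited with the number expected by MAPS. Read depth per replicate is unknown here.

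Genes came from GENCODE release 44. Overlaps needed 1 bp. The peak with the highest -log10 q-value stood for a window. The members, families and named pairs were chosen with earlier results of these data known. Named are the 5 members with the highest -log10 q-value per target, the 5 with the most loops and the 3 strongest loops between members per list, known pairs that the rule finds, and the pairs next to the limit of 1 kb. The motif was learned by expectation maximization with a seed of 11. On simulated data 19 of 19 planted motif positions and 813 of 813 overlaps were found. Chromosome X was not used. A few items, 1 known pair among the members included, are not reported here. Starts in stretches without peaks were kept. Alternatives covered windows, composition, thresholds, anchors, spans and gene starts. Computations used SciPy 1.17.1 and NumPy 2.4.6 under Python 3.11.15, tables pandas 2.3.3 and plots Matplotlib 3.10.9.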

Additional observations from a re-analysis of the deposited data

How the results depend on the processing

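Of 79 values under other settings, 63 stayed within the 95% interval of the reported value and 16 moved out of it. Among results whose interval excluded no difference, 0 changed sign. The ratio of the SMC1 medians, whose interval includes no difference, was 1.002 as reported and 0.988 with weighting to GC deciles. With the other starts weighted to the GC deciles of the members, the difference was 27.2 percentage points for SMC1 peaks, 17.4 for CTCF peaks and 9.75 for anchors of the list labelled CTCF. With starts that have a noncoding partner as the comparison, it was 11.9, 6.71 and 7.14, and 4.29 for a SMC1 peak without a CTCF peak. Weighting to the CpG ratio, chosen after the data were seen, gave 17.8 for SMC1 and 10.3 for CTCF peaks. Counting only peaks whose -log10 q-value reached 10, it was 14.5 for CTCF peaks and 17.7 for a SMC1 peak without a CTCF peak. With loops of at least the median read pairs, it was 9.36 for anchors of the list labelled CTCF. The difference in partners was 5.62 percentage points in the list labelled CTCF when the start itself had to lie in the anchor, and 7.25 in the list labelled SMC1 when weighted to the density of coding starts, also chosen after the data were seen. With gaps of at least 200 bp, 24.2% of SMC1 and 29.7% of CTCF summits lay between the starts, where 17.4% of the window length then lies. The cause was not tested, save that wider gaps hold more of the window. With starts of canonical transcripts, 957 pairs met the rule. No paired analysis was possible because the replicates of each target were pooled before the lists were made, and no replicate could be left out. Lists of called peaks hold no values below the threshold, so an absent peak can be a signal not called at this depth, or lie in a stretch that holds no peak at all. Leaving out those stretches moved none of the 5 differences out of its interval.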

Other observations

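Of the 9 known head-to-head pairs that the rule did not find, all have gene bodies that overlap in the annotation, and their starts count among the other starts. In 3 of them, HSPD1 and HSPE1, COL4A1 and COL4A2, and TAP1 and PSMB9, the starts lie over 1 kb apart, so that most of these starts count as single. PARP9 and DTX3L, a pair induced by interferon, shared a SMC1 peak with a -log10 q-value of 24.9 and no CTCF peak, and their starts had 5 loops in the list labelled CTCF and 3 in the list labelled SMC1. ZAR1L and BRCA2 shared a SMC1 peak of 15.2, again with no CTCF peak, and had 7 and 1 loops in these lists. THBS3 and MTX1 had the highest value of these pairs, a SMC1 peak of 102 with no CTCF peak. GART and SON had 38.8 for SMC1 and 7.06 for CTCF, and SURF1 and SURF2 had 16.6 and 12.4. HSPD1 and HSPE1, chaperonin genes, had SMC1 peaks of 36.4 and 20.3 at their separate gene starts and no CTCF peak. COL4A1 and COL4A2 had no peak of either target within 1 kb of their gene starts. TAP1 and PSMB9 lie in a stretch of chromosome 6 without any peak, so that nothing can be said of them.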
